A study of Arabidopsis thaliana with 30 samples.

Results

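The late regeneration genes of the Arabidopsis root stump were 61 of 22746 probe sets on the ATH1 array. They were chosen by measured values, as group means of log2(signal + 32), a scale on which 1 unit is close to a doubling of signal for bright probe sets and more than a doubling for dim ones. A probe set was taken when its mean at 13 h and its mean at 22 h after tip removal each lay at least 1 above its means at 0 h and at 5 h, when its 5 h mean lay less than 1 above its 0 h mean, and when its mean signal at 13 h was at least 150. The label "up from 13 h" therefore restates the rule, and the levels at 0, 5, 13 and 22 h are given as a description with no test.

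A plant root grows from a stem cell niche near its tip, and an excised tip can be rebuilt from the cells of the stump behind it. Cells that leave the dividing zone elongate, which requires loosening of the cell wall by expansins and remodelling of pectin. Class III peroxidases, which are secreted enzymes that use hydrogen peroxide, can stiffen or loosen the wall, and they belong to a large family with many members in the root.

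All plants were Arabidopsis thaliana Col-0. For the stump series, seedlings were cut at 4 days post germination (dpg). The distal 130 µm of the root was removed, and the adjoining 70 µm of stump was collected at 0 h (4 arrays), 5 h (4 arrays), 13 h (4 arrays) or 22 h (5 arrays). The groups that the rule did not use were the excised tip at 4 dpg (4 arrays), the tip at 8 dpg (3 arrays), a stump at 8 dpg (3 arrays) and an uncut section labelled 270 to 340 from the tip and collected at once (3 arrays). The labels describe the stump at 8 dpg both as recut at 0 h and as taken 192 h after the first cut, give no age for the section, and print mm in titles where the protocol gives µm. Each array carried RNA pooled from at least 25 pieces of tissue, so a larger share of one cell type and more RNA per cell cannot be told apart. Separate sowings or days are not stated for the replicates, and the p-values rest only on the variation among these pools.

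The median signal of the 30 arrays ranged from 66.1 to 141.8. The labelled tissues were checked against the named probe sets of the root tip, cell cycle and maturing root lists. BBM, a transcription factor of the root stem cell niche, had signals of 57.3 to 315.1 in the tips at 4 dpg and of 185.1 to 264.0 in the tips at 8 dpg, and of 5.8 to 12.5 in the sections. The other named genes on the root tip list, JKD and CR4, did not separate tip from section: JKD had mean signals of 92.55, 87.03 and 98.4 in the tips at 4 and 8 dpg and the section, CR4 of 26.15, 28.3 and 9.1, and neither was called by limma in either tip. The mitotic kinase gene AUR1 had signals of 606.5 to 1325.9 in the tips of both ages and of 213.9 to 245.2 in the sections. The endodermis, xylem, phloem and leaf lists had no named probe set, so the maturity of the section was not checked with them.

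Of the 61 members, 26 had a probe set with 1 gene, 1 had a probe set for several genes and 34 were not named by the table used. The mean signal of members at 13 h ran from 165.5 to 8227, with a median of 380.2. The rise, taken as the mean of the 13 and 22 h levels minus the higher of the 0 and 5 h levels, had a median of 1.57 and ran from 1.05 to 2.89, against a median of -0.20 over all probe sets. At 5 h the median difference of the members from 0 h was -0.16, close to the median of all probe sets (-0.15), and the rule itself capped this difference. The 5 h mean lay below the 0 h mean for 44 members (72.1%), as it did for 62.5% of all probe sets. Between 13 and 22 h, 42 members stayed within 0.5, 16 lay at least 0.5 higher at 22 h and 3 at least 0.5 lower. All arrays at 13 and 22 h lay above all arrays at 0 and 5 h for 13 of 61 members, where 0.132% of all probe sets did so, a count that the rule itself favours.

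**Figure D1:**
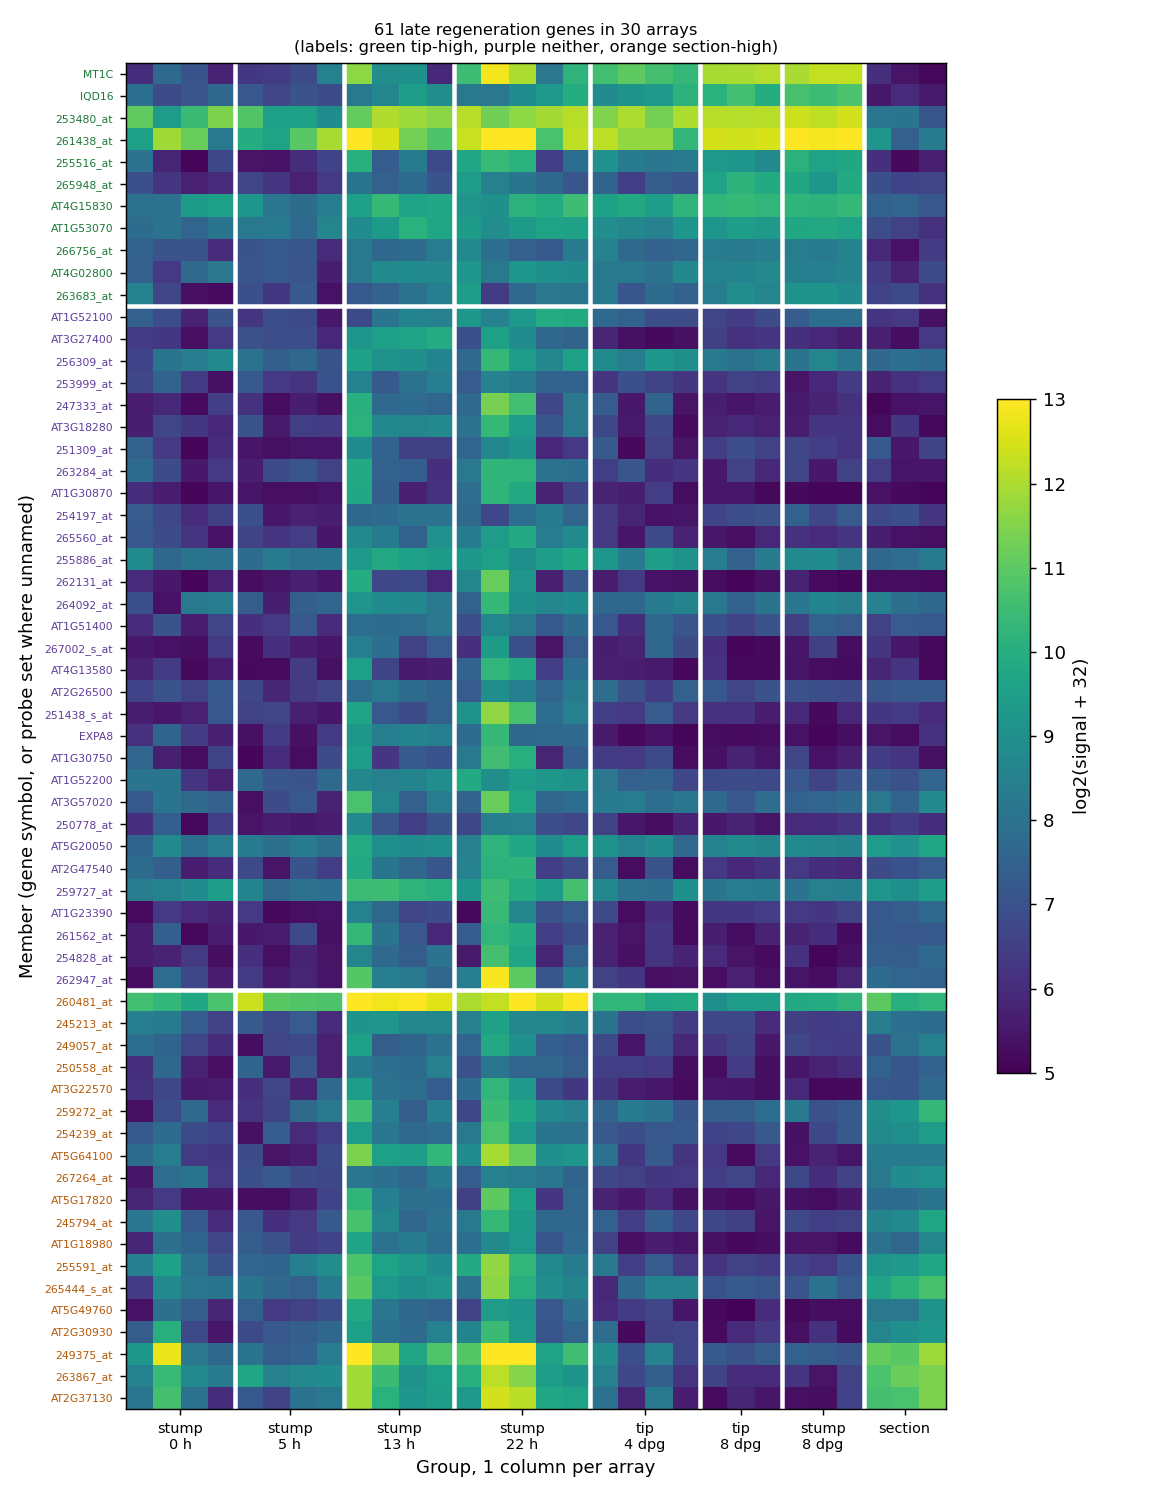
Level of the 61 members (rows) in the 30 arrays (columns, grouped by tissue), coloured by log2(signal + 32). White lines part the groups of arrays and the 3 sets of members defined by the tip at 8 dpg against the section. Array 1 at 13 h (leftmost column of its group) and arrays 2 and 3 at 22 h are brighter than their neighbours in most of the lower 2 blocks.

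At the threshold, AT4G15830 was just inside with a smallest difference of 1.01, as was an unnamed probe set with 1.02. AT1G67750, a pectate lyase family gene, was just outside with 0.999, and AT3G13650, a dirigent family gene, with 0.98. In all, 14 members passed by less than 0.1, and 20 other probe sets missed by at most 0.1.

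Of the 9 late stump arrays, 3 stood apart in these genes, namely array 1 at 13 h and arrays 2 and 3 at 22 h. Array 1 was the highest of the 4 arrays at 13 h for 42 members, and arrays 2 and 3 both exceeded the other 22 h arrays for 43, with 37 members showing both. The median member lay 2.59, 3.04 and 2.20 above the higher of its 0 h and 5 h means in these 3 arrays, and 0.82 to 1.39 above it in the other 6. The median was positive in every late array, but at very different sizes, and the rule favours this because these arrays chose the members. Without the 3 arrays the rule gave 24 probe sets, 22 of them among the 61, and the median rise of the 61 was 1.14 (0.29 to 2.24). Without array 1 at 13 h alone it gave 37 probe sets, 35 of them among the 61.

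**Figure D2:**
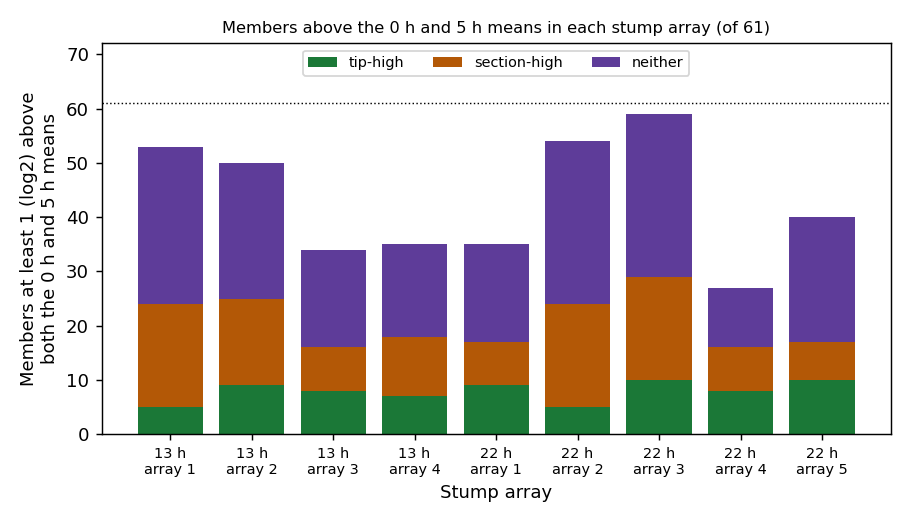
Number of members (y axis, of 61, dotted line) whose level in each late stump array (x axis) lay at least 1 above both the 0 h and the 5 h mean, split into the 3 sets by colour. The counts run from 27 in array 4 at 22 h to 59 in array 3 at 22 h, and the section-high members number 19 in array 1 at 13 h and arrays 2 and 3 at 22 h and 7 to 16 in the other 6 arrays.

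Markers of root hairs moved with the same 3 arrays. Of the 7 genes on the root hair and epidermis list, 2 had a named probe set, EXPA7 and EXPA18, expansins of growing root hairs, and neither was a member. At 13 h, EXPA7 had a signal of 657.3 in array 1 and of 82.5 to 138.6 in the other arrays. At 22 h, it had 704.7 and 587.4 in arrays 2 and 3 and 46.2 to 85.6 in the others. EXPA18 had 358.1 in array 1 at 13 h and 601.2 and 338.4 in arrays 2 and 3 at 22 h, against 34.1 to 119.0 in the other late arrays. The summed signal of both genes ran from 116.6 to 1015.4 at 13 h and from 120.1 to 1305.9 at 22 h, and did not exceed 222.7 in any other group. The part of root hair cells in the members' values was not tested.

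The groups not used by the rule separated the members. Between the tip at 8 dpg and the section, called at a limma adjusted p under 0.05 and a difference of at least 1, 11 of 61 members (18.0%) were higher in the tip, where 9.93% of all probe sets were. In the same comparison 19 members (31.1%) were lower in the tip, that is higher in the section, where 7.33% of all probe sets were, and 31 were called in neither direction. The median difference was -0.37 over the members and 0.05 over all probe sets. These 3 sets are called tip-high, section-high and neither below. The names rest on the tip at 8 dpg, while the stump series was cut at 4 dpg. The tip at 8 dpg lay at least 1 above the tip at 4 dpg for 2 tip-high members, and at least 1 below it for 1 section-high member. The spread behind the p-values was estimated over all 30 arrays, including the stump arrays that chose the members. With only the 4 groups not used by the rule in the fit, 11 members were higher in the tip at 8 dpg and 23 lower. Of all probe sets, 10.9% were then higher and 8.13% lower. All 3 comparisons with the section share its 3 arrays, so their counts are not independent of each other. The shares over all probe sets include dim ones, while the rule asked members for a mean signal of at least 150 at 13 h. Without the 40% dimmest probe sets, 16.3% of the rest were higher in the tip at 8 dpg and 11.4% lower. Of the 56 members kept, 11 were higher and 20 lower, so the tip-high share lay near that of the brighter probe sets.

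**Figure D3:**
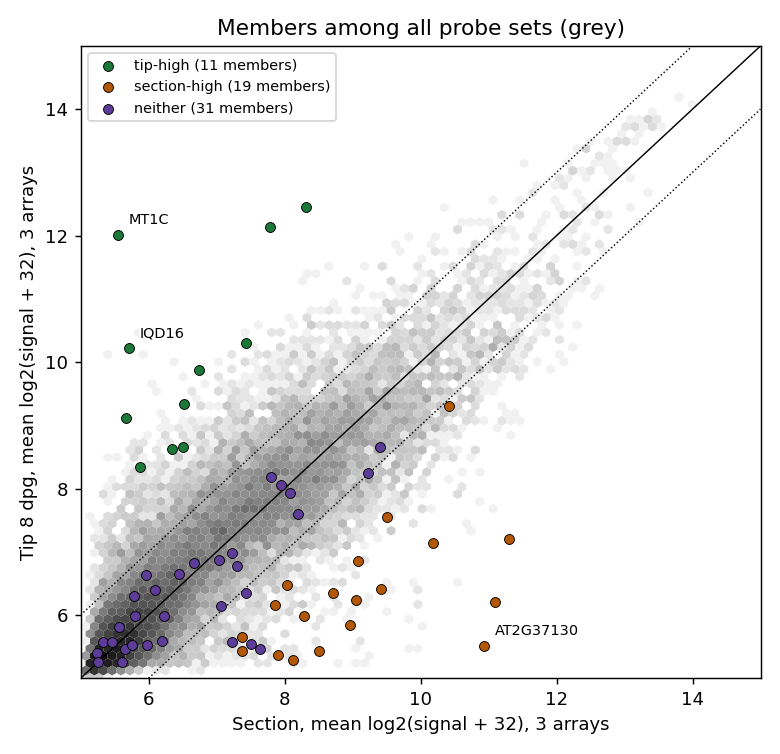
Mean log2(signal + 32) of each probe set in the section (x axis, 3 arrays) and in the tip at 8 dpg (y axis, 3 arrays), with all probe sets as grey density and the 61 members as coloured points. The solid line marks equal levels and the dotted lines a difference of 1; MT1C lies 6.46 above equality and AT2G37130 5.42 below it.

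Between the tip at 4 dpg and the section, 11 members were higher in the tip (background 9.9%) and 14 lower (background 7.18%). All probe sets had a median difference of 0.20 in this comparison, and after centring of the arrays on their medians 9 members were higher and 23 lower, where 5.2% and 11.4% of all probe sets were. Between the stump at 8 dpg and the section, 12 members were higher in the stump (background 10.0%) and 17 lower (background 7.83%). Over the 3 comparisons, 9 members were called higher than the section in each, 13 lower in each, 29 in none, and 0 in opposite directions. These joint counts were not made over all probe sets, and the comparisons share the section arrays, so nothing is read from their agreement. Between the tip and the stump at 8 dpg, limma called 0 of 61 members, where 0.0% of all 22746 probe sets were called. At an unadjusted p under 0.05 there were 1 member, AT1G52100, and 238 probe sets.

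**Figure D4:**
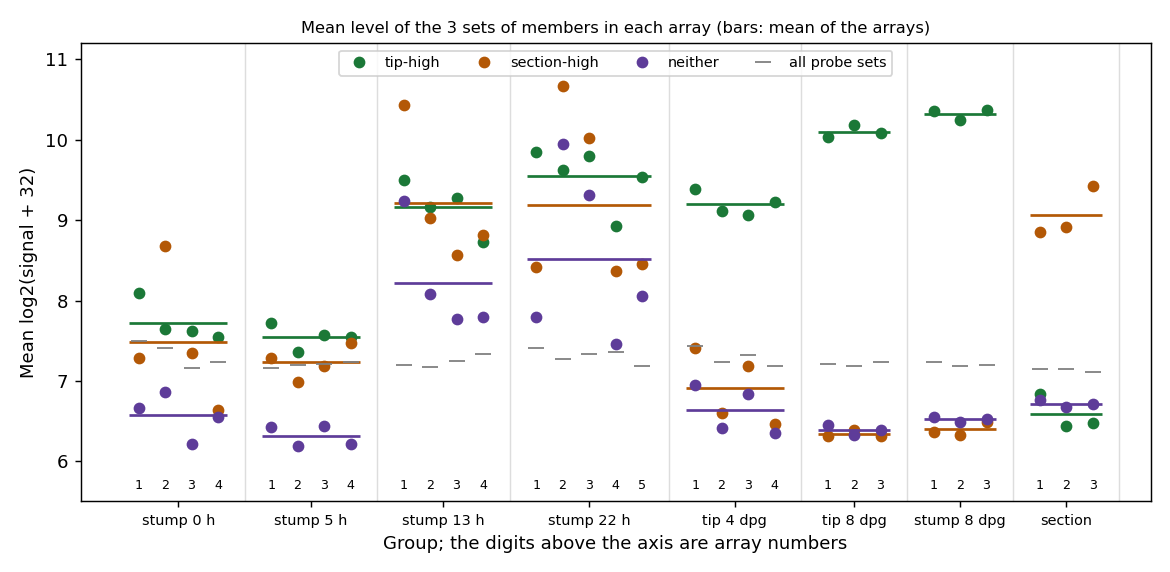
Mean log2(signal + 32) of the 11 tip-high, 19 section-high and 31 other members in each array (points), with the mean of the arrays of a group (coloured bars) and the mean of all probe sets (grey dashes). The tip-high mean lies between 8.73 and 9.85 in all late stump arrays, while the section-high mean is 10.43, 10.67 and 10.02 in the 3 arrays that stand apart and 8.37 to 9.03 in the other 6.

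For 9 of the 11 tip-high members, the 0 h mean of the stump lay between those of the tip at 4 dpg and the section. For 2 it lay below the section mean. The 0 h mean was likewise intermediate for 17 of the 19 section-high members and 15 of the 31 others. The median level of the tip-high members was 7.39 at 0 h, 6.93 at 5 h, 8.81 at 13 h and 8.91 at 22 h, against 8.82 in the tip at 4 dpg, 9.88 in the tip at 8 dpg, 9.84 in the stump at 8 dpg and 6.50 in the section. At 22 h, 9 of the 11 lay within 1 of the tip at 4 dpg and 2 lay more than 1 above it. The 3 arrays that stood apart changed the median of this set little, with a median rise of 1.41 with them and 1.40 without them, and 8 of the 11 were still chosen by the rule.

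MT1C (AT1G07610), a metallothionein that binds metal ions through its cysteines, had the largest difference between tip and section. Its signals were 33.8, 183.0, 103.5 and 23.3 at 0 h and 47.3, 52.1, 81.7 and 334.5 at 5 h. At 13 h they were 3178.9, 465.2, 484.3 and 26.9, and at 22 h 1436.1, 7447.0, 4132.5, 255.3 and 1150.6. The late arrays thus spanned a wide range, and array 4 at 13 h lay within the 0 h range. Its signals in the tip were 1510.4, 2028.7, 1559.0 and 1251.1 at 4 dpg and 3966.6, 3983.3 and 4373.7 at 8 dpg, and in the section 36.0, 10.5 and 3.8, with no overlap. It was higher in the tip at 8 dpg than in the section by 6.46 ± 0.87 (log2, SE; limma adjusted p = 8.82e-07). MT1C was not chosen by the rule without the 3 arrays.

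IQD16 (AT4G10640), of the IQ67-domain family of calmodulin-binding proteins, showed a narrower spread. It had signals of 212.9, 82.3, 105.0 and 174.7 at 0 h and of 111.8, 69.4, 101.4 and 83.0 at 5 h. At 13 h it had 265.3, 377.6, 665.6 and 448.0, and at 22 h 262.3, 255.1, 444.6, 584.7 and 959.6, all above the earlier arrays. The sections were lowest, at 14.7, 31.5 and 16.0, and the tips at 8 dpg reached 1077.4, 1522.2 and 960.2. IQD16 was higher in the tip than in the section at 8 dpg by 4.52 ± 0.37 and at 4 dpg by 3.66 ± 0.35 (log2, SE; limma adjusted p = 1.27e-10 at 8 dpg).

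The other named tip-high genes showed smaller differences. AT4G15830, of the ARM repeat family, had a mean log2 level of 8.74 at 0 h, 8.39 at 5 h, 9.84 at 13 h and 9.76 at 22 h, and was higher in the tip at 8 dpg than in the section by 2.87 ± 0.38 (limma adjusted p = 5.80e-07). AT1G53070, a legume lectin family gene, had signals of 161.6 to 363.2 at 0 and 5 h and of 434.5 to 1081.8 at 13 and 22 h, with no overlap, and was higher in that tip by 2.82 ± 0.28. AT4G02800 had signals of 18.5 to 256.8 at 0 and 5 h and of 263.7 to 563.2 at 13 and 22 h, also with no overlap, and was higher by 2.28 ± 0.39. All 5 named tip-high genes were also called higher in the tip at 4 dpg and in the stump at 8 dpg than in the section. AUR1 and AUR2, mitotic kinases and the 2 named genes on the cell cycle list, were not members but were higher in the tip at 8 dpg than in the section by 2.32 ± 0.34 and 2.43 ± 0.29. Both lay lower at 5 h than at 0 h, with mean log2 levels of 9.45 and 8.76 for AUR1 and of 8.28 and 7.34 for AUR2.

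The 19 section-high members included 3 of the 4 peroxidases. Their median level was 7.22 at 0 h, 6.84 at 5 h, 8.70 at 13 h and 8.77 at 22 h, against 8.96 in the section and 6.94 in the tip at 4 dpg. At 22 h, 17 of the 19 lay within 1 of the section and 2 lay more than 1 above it, and all 19 lay at least 1 above the tip at 4 dpg. For 17 of the 19 the 0 h mean already lay between those of the tip at 4 dpg and the section. The rule thus fixed in advance that these 17 would lie at least 1 above that tip. The median rise was 1.44 with the 3 arrays that stood apart and 0.88 without them, and 4 of the 19 were then still chosen by the rule. The mean level of the set was 8.37 to 9.03 in the other 6 late arrays and 8.85 to 9.42 in the section arrays. Array 2 at 0 h also stood out, with a section-high mean of 8.68 against 6.64 to 7.35 in the other 0 h arrays.

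AT5G64100, a class III peroxidase, had the largest rise of all named members, 2.89, and 2.17 without the 3 arrays. Its signals were 194.4, 304.0, 50.7 and 46.3 at 0 h and 82.9, 10.7, 17.8 and 80.1 at 5 h. At 13 h they were 2707.3, 719.0, 679.1 and 1218.4, and at 22 h 434.9, 3890.8, 2240.3, 482.5 and 544.8, so that every late array lay above every earlier one. The section gave 278.2, 281.7 and 285.0, below all late stump arrays, and the tips at 8 dpg gave 49.0, 5.7 and 49.9. The tip at 8 dpg minus the section was -2.32 ± 0.65 (log2, SE; limma adjusted p = 0.00839), and this call was lost without array 2 of that tip (adjusted p = 0.0634). AT5G64100 was not called between the tip at 4 dpg and the section, at -1.35 ± 0.61 (limma adjusted p = 0.113). It was called lower in the stump at 8 dpg, at -2.75 ± 0.65. AT5G64110, its direct neighbour on chromosome 5 and also a peroxidase gene, had signals of 4.5 to 23.4 at 13 h. AT5G64120, 1 protein-coding gene further on, had 226.2 to 407.9 at 5 h against 19.3 to 64.6 at 0 h, and so was no member.

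AT2G37130, another peroxidase, was the most section-high member. Its signals were 251.2, 1575.1, 219.6 and 34.5 at 0 h, 114.8, 62.3, 219.4 and 268.8 at 5 h, 3766.7, 1076.0, 551.7 and 665.8 at 13 h, and 580.6, 5575.4, 4591.6, 841.5 and 745.4 at 22 h. Array 2 at 0 h lay above 6 of the late arrays, so the groups overlapped. The section had 1558.3, 1653.1 and 2759.1 and the tip at 8 dpg 5.3, 24.6 and 13.2, a difference of -5.42 ± 0.84 for tip minus section (log2, SE; limma adjusted p = 9.02e-06). AT5G17820, also a peroxidase, had signals of 6.9 to 66.1 at 0 and 5 h, 212.1 to 1162.0 at 13 h and 45.5 to 2051.0 at 22 h, and a tip minus section difference of -2.53 ± 0.72 at 8 dpg (limma adjusted p = 0.00921).

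**Figure D5:**
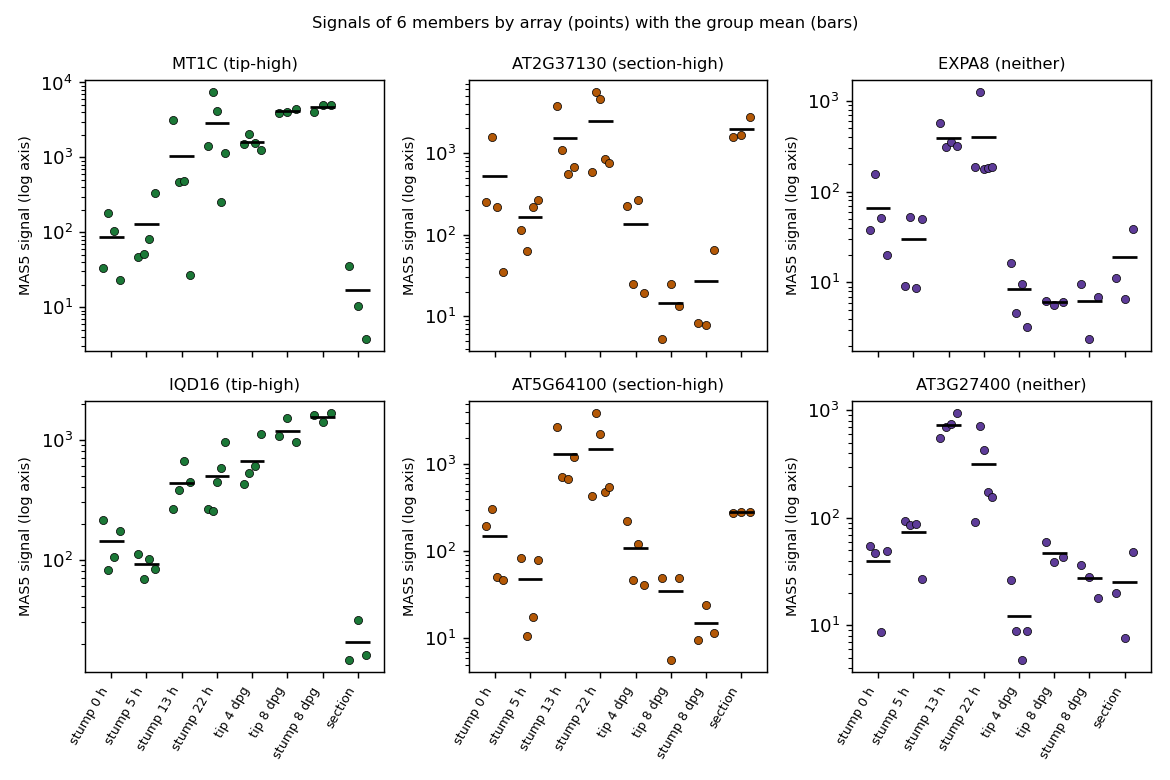
MAS5 signal (log axis) of 6 members in each array (points) of the 8 groups, with the group mean as a bar. The tip-high genes MT1C and IQD16 are lowest in the section, the section-high peroxidases AT2G37130 and AT5G64100 are lowest in the tip and stump at 8 dpg, and EXPA8 and AT3G27400 are highest at 13 and 22 h.

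The fourth peroxidase, AT1G30870, was in the set called in neither direction. It had signals of 3.3 to 34.0 at 0 and 5 h, and of 852.3, 138.6, 19.6 and 40.4 at 13 h and 199.8, 1171.2, 924.2, 22.4 and 67.6 at 22 h, with a rise of 2.11, or 1.03 without the 3 arrays that stood apart. In the 4 groups the rule did not use, its signals did not exceed 54.8. Of the 73 class III peroxidase genes on a list drawn up with these results known, 55 had a named probe set, of which 3 were higher and 10 lower in the tip at 8 dpg than in the section, with a median difference of 0.02. Among the 10 were the 3 section-high members. AT4G30170, the peroxidase named here as a contrast after its values were seen, had a section signal of 7152.1 to 11864.2 and a tip minus section difference of -7.60 ± 0.74 at 8 dpg. It was no member, with stump signals of 369.5 to 4577.3 at 0 h and of 710.1 to 4286.4 at 13 h that overlapped.

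The other section-high genes with a name included a receptor. AT5G49760, a leucine-rich repeat receptor kinase, had signals of 9.7, 213.8, 132.1 and 25.3 at 0 h, 897.8, 247.8, 175.7 and 149.1 at 13 h, and 62.2, 654.8, 554.0, 111.0 and 227.5 at 22 h. Its signals were 1.8 to 32.3 in the tip at 8 dpg and 259.2 to 525.4 in the section, a tip minus section difference of -3.08 ± 0.63 (limma adjusted p = 4.06e-04). AT1G18980, a germin-like gene of the cupin family, had a difference of -2.83 ± 0.51, with a rise of 1.32 and of 0.84 without the 3 arrays. AT2G30930, to which no role is given here, had a difference of -3.12 ± 0.74, with a rise of 1.13 and of 0.53 without the 3 arrays. AT3G22570, of the lipid-transfer and protease inhibitor family, had a difference of -1.94 ± 0.66 (limma adjusted p = 0.0323), but the call was lost when any 1 array of either group was left out (adjusted p up to 0.123). Without the 3 arrays, AT5G49760, AT1G18980, AT2G30930 and AT3G22570 were not chosen by the rule.

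The 31 members called in neither direction had a median level of 6.37 at 0 h, 6.20 at 5 h, 7.98 at 13 h and 8.41 at 22 h, against 6.22 in the tip at 4 dpg, 6.14 in the tip at 8 dpg and 6.45 in the section. Over the whole list, 18 members had 13 and 22 h means at least 1 above the means of all 4 groups not used by the rule, where 0.572% of all probe sets did, and of which 16 belonged to this set and 9 carried a name. For 9 members, every array at 13 and 22 h lay above every array of those 4 groups, where 0.382% of all probe sets did so. Both counts rest on the 13 and 22 h values that chose the members, and nothing is read from them. A missing call does not show equal levels in tip and section. For 12 of the 31 members in the set, the arrays of the tip at 8 dpg and of the section did not overlap. That count was not made over all probe sets. The set had a median rise of 1.65, or 1.21 without the 3 arrays, and 10 of its 31 members were then still chosen by the rule.

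Some of these genes were high in nearly every late array. EXPA8 (AT2G40610), an expansin that loosens cell walls, had signals of 37.8, 157.8, 51.6 and 20.2 at 0 h, 9.1, 52.7, 8.7 and 50.1 at 5 h, 570.3, 312.7, 354.7 and 321.7 at 13 h, and 189.0, 1252.2, 177.4, 184.3 and 189.2 at 22 h. No late array overlapped an earlier one, and the signals in the 4 other groups did not exceed 38.9. AT3G27400, a pectate lyase that cleaves pectin, had 554.4, 701.7, 749.0 and 945.1 at 13 h, 92.5, 720.5, 430.8, 175.6 and 156.4 at 22 h, and 8.6 to 93.3 at 0 and 5 h. It peaked at 13 h, with a mean 1.44 lower at 22 h, and array 1 at 22 h lay within the 5 h range. AT3G18280, of the lipid-transfer family, had 1095.4, 393.9, 365.9 and 420.5 at 13 h, 224.3, 1245.2, 659.4, 110.6 and 271.1 at 22 h, and 15.4 to 101.4 at 0 and 5 h, with no overlap. EXPA8 and AT3G18280 were still chosen without the 3 arrays, and AT3G27400 was not. The rises of EXPA8, AT3G27400 and AT3G18280 were 2.03, 2.19 and 2.47, and 1.69, 1.89 and 1.88 without the 3 arrays.

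Other genes of the set depended more on those arrays. AT4G13580, a dirigent family gene of the kind that directs lignan and lignin coupling, had 692.4 in array 1 at 13 h and 15.7 to 68.2 in the other 13 h arrays, and 1207.4 and 880.0 in arrays 2 and 3 at 22 h against 56.0 to 206.9 in the others. AT1G30750, to which no role is given here, had 676.7 against 44.4 to 122.4 at 13 h, and 1466.2 and 1035.6 against 24.6 to 268.4 at 22 h. AT2G47540, of the Ole e 1 and extensin family of wall proteins, had 877.2 against 108.2 to 246.9 at 13 h. Its signals at 22 h were 1090.7 and 1115.5 against 56.6 to 339.4. AT1G23390, a kelch repeat F-box gene, ranged from 3.9 to 1316.5 at 22 h, and AT3G57020, of the strictosidine synthase-like family, from 155.6 to 2240.8. The rises without the 3 arrays were 0.86, 0.69, 0.74, 0.94 and 0.29 in this order, and the rule no longer chose any of the 5.

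AT1G52100, a jacalin lectin gene, did not follow the 3 arrays. Its signals were 76.7, 235.4, 362.6 and 325.5 at 13 h and 574.7, 343.7, 577.8, 947.0 and 891.7 at 22 h, lowest in array 1 at 13 h and array 2 at 22 h, and its rise was 1.88 with the 3 arrays and 2.24 without them. At 0 and 5 h its signals were 13.9 to 142.3. It was called higher than the section in the tip at 4 dpg by 1.30 ± 0.42 (limma adjusted p = 0.0242) and in the stump at 8 dpg by 1.74 ± 0.45 (adjusted p = 0.00425), while the tip at 8 dpg differed by 0.68 ± 0.45 (adjusted p = 0.376). The call at 4 dpg was lost without array 3 of the section (adjusted p = 0.169), without array 1 of the tip (0.0723) and without its array 2 (0.0585). It was also lost with the larger pseudocount (a difference of 0.65), quantile normalization, median centring and without the 4 arrays of highest median, and the call in the stump at 8 dpg was lost with the larger pseudocount (a difference of 0.94). AT1G52200, of the PLAC8 family and 10 protein-coding genes away on chromosome 1, had signals of 325.9 to 449.0 at 13 h and of 471.2 to 913.1 at 22 h, all above the 21.8 to 242.2 at 0 and 5 h, and its rise was 1.59 with the 3 arrays and 1.62 without them.

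The last 3 named members had rises below the median of all members (1.57). Without the 3 stump arrays that stood apart, the rule chose none of them. AT5G20050, a protein kinase family gene, had a rise of 1.13, with signals of 161.0 to 401.6 at 0 and 5 h and of 328.7 to 1139.5 at 13 and 22 h. The others encode plastid proteins. AT2G26500, a subunit of the cytochrome b6f complex, had a rise of 1.15 and AT1G51400, a small photosystem II protein, a rise of 1.46. None of the 3 was called between the tip at 8 dpg and the section, with differences of -0.74 ± 0.36, -0.24 ± 0.38 and -0.16 ± 0.44. The 26 named members were spread over the 5 chromosomes as 9, 5, 4, 4 and 4.

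No named member was on the cell cycle, auxin, cytokinin, root tip patterning or root hair lists, which had named probe sets for 2 of 15, 8 of 21, 1 of 5, 3 of 14 and 2 of 7 genes, and 34 members could not be looked up. Of the 21 auxin genes, 8 had a named probe set, and 3 of these were higher in the tip at 8 dpg than in the section and 0 lower. IAA33, an Aux/IAA family gene, was the one with the largest difference, 3.78 ± 0.34. It had signals of 9.0 to 33.0 at 0 h, 95.4 to 176.8 at 5 h, 155.4 to 673.0 at 13 h and 330.5 to 540.3 at 22 h, so it was already higher at 5 h and was no member. BBM likewise had 6.6 to 25.5 at 0 h and 118.2 to 182.0 at 5 h.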

How the data were processed

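The deposited values were MAS5 signals, intensities on a linear scale, per the submitters' processing notes. No source used here gives its version. RNA (50 ng) was amplified in 2 labelling cycles, per the labels' protocols. Signals were used as log2(signal + 32) without further scaling. The 30 arrays entered 1 model with a coefficient per group (limma 3.58.1 in R 4.3.3, eBayes with a trend). Adjustment was by Benjamini-Hochberg across the 22746 probe sets. A call needed an adjusted p under 0.05 and a difference of at least 1. On simulated data over 22746 probe sets, changes were added only to probe sets with a mean level above the median. For the tip at 8 dpg against the section, 92.5% of 4-fold and 19.4% of 2-fold changes were recovered. Recovery meant an adjusted p under 0.05 in the right direction, with no minimum difference. There were 12 false calls, counted with the minimum difference of 1. Recovery in dimmer probe sets was not simulated. The changed probe sets were drawn at random, so recovery at the spread of the members was not measured. Precision is limited by the number of arrays.

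The members, gene lists and tests were chosen with earlier results of these data known. Named genes were the 12 largest rises, up to 8 called genes per direction and comparison, members on lists and the genes nearest the threshold. AT2G26500, AT2G47540, AT5G20050, AT3G57020, AT1G52200 and AT1G51400 fell outside that rule and were added so that every named member is accounted for, as were peroxidases AT4G30170, AT5G64110 and AT5G64120. Of 22746 probe sets, 13513 had 1 gene in the platform table, of which 13436 matched RefSeq (TAIR10.1, used for names and neighbours). All 26 named members matched. Family roles of loci are general background, since the tables hold no product names. Probe sets ending in _s_at can match several transcripts. Promoter motifs were not searched. Alternatives were other pseudocounts, quantile normalization, median centring, group medians, filters, fits of fewer groups, a replicate block, array weights and each array left out. Leaving out 3 stump arrays together was chosen after seeing the data. Plots were drawn with matplotlib 3.10.9.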

Additional observations from a re-analysis of the deposited data

Results flagged for a closer look

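In 130 groups of 4 or 5 arrays of the 26 named members, 9 had an array farther from the others than Dixon's 95% limit for the gap, and chance gives about 1 in 20 groups. Array 1 at 13 h was set apart in 3 genes: AT5G20050 (signal 946.5, the others 438.8 to 479.1), AT3G18280 (1095.4, the others 365.9 to 420.5) and, as the lowest, AT4G02800 (265.6, the others 407.8 to 431.2). EXPA8 had 1252.2 in array 2 at 22 h, where the others had 177.4 to 189.2. At 5 h, AT4G13580 had 52.5 in array 3 (others 4.9 to 9.0), AT1G23390 had 47.6 in array 1 (others 5.2 to 10.1), and array 4 was lowest for AT4G02800 with 18.5 (others 106.7 to 116.3) and for AT3G27400 with 27.1 (others 86.5 to 93.3). At 0 h, AT3G27400 had 8.6 in array 3 (others 47.1 to 54.4).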

How the results depend on the processing

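The number of members moved most. It was 28 with a larger pseudocount, 4 times the one used (24 of them among the 61), 20 with a difference of 1.5 in place of 1 and 24 without array 1 at 13 h and arrays 2 and 3 at 22 h, an alternative chosen after seeing the data. With each array left out in turn it ran from 37 (array 1 at 13 h) to 79. It was 90 with a pseudocount of 1 (60 of the 61), 51 with group medians (41 of the 61), 66 with quantile normalization, 61 with median centring (55 of the 61 in each) and 82 with no minimum signal. The counts of members called stayed within 1.5 times their value in all 3 comparisons with the section, from 24 to 34, 19 to 34 and 24 to 34 for the older tip, the younger tip and the older stump. Without the 3 stump arrays they were 33, 32 and 33. The shares over all probe sets moved more. For the older tip 5.71% were higher and 4.85% lower with the larger pseudocount, and 16.3% and 11.4% without the 40% dimmest probe sets. A steady count of members is therefore not a steady excess over all probe sets. For tip against stump at 8 dpg, array weights called 1 member and every other alternative 0. In the groups compared, replicate numbers did not pair the arrays, with correlations of deviations of same-numbered arrays from -0.0417 to 0.0501. The stump arrays at 0, 5, 13 and 22 h were not checked for pairing. With the replicate block the counts of calls were 31, 24, 30 and 0. Of 37 calls of named members, 27 held under every alternative, 10 were lost under at least 1 and 0 reversed. Those lost were calls of AT3G22570, AT1G52100, AT5G17820, AT5G64100 and AT2G30930, and the cause was not tested. Dim signals limit small differences, since the pseudocount of 32 shrinks them.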
